A study of Mus musculus with 26 samples.

Results

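IGHG1 and IGHG3 are the constant-region genes of the heavy chains of mouse IgG1 and IgG3. All 26 tables were searched for heavy-chain sequences listed under either gene, each gene was kept apart, and the 2 technical libraries of a replicate were summed. The members are 2 of the 7 isotypes listed, with 27897 copies of IGHG1 and 32498 copies of IGHG3 among 4007742 copies, which is 0.696% and 0.811% of the total. A copy is 1 unit of the deposited whole-number count of a sequence, and a clonotype is 1 combination of V gene, J gene and junction, the nucleotides from the conserved cysteine to the conserved tryptophan. IGHG1 had 11528 clonotype entries over all replicates and IGHG3 had 18844.

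The libraries came from wild-type (WT) mice given association with S. epidermidis, a bacterium that lives on skin, and cover 3 tissues (skin, spleen, lymph node), with 4 biological replicates of each tissue and every replicate sequenced as 2 technical libraries. A positive control of 1 replicate with 2 technical libraries has no treatment label, and its cells are named only as B cells. All groups are labelled B cells, but the tables hold heavy-chain transcripts alone, so markers of cell types could not be checked. The tissue was read from the titles, because the tissue label is ear skin throughout the tissue samples, and no age was used. The labels do not say whether replicates with the same number came from the same mouse, nor whether replicates were separate mice, so p-values measure the spread between these samples. In bulk RNA, fewer cells of an isotype and less transcript per cell cannot be told apart.

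IgG1 and IgG3 arise by class switch recombination, which joins the rearranged V region exon of a B cell to a constant gene downstream of Ighm and Ighd. In mice IgG3 is known for responses to bacterial polysaccharides that need little T cell help, and IgG1 for responses to proteins with T cell help. Somatic hypermutation, which takes place mostly in germinal centres, adds mismatches to the V segment. In RefSeq's annotation of GRCm38.p6, Ighg3 lies on chromosome 12 from 113357442 to 113361232 and Ighg1 from 113326541 to 113330523, both as constant-region genes. The submitters' processing notes name mm10, the same reference build.

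The junctions below belong to the IgG3 CDR3 sequences that recurred between replicates most often, and were chosen after their values were seen. CDR3 is the loop at the V to J join that varies most between antibodies. Capitals mark the bases that differ from the most abundant IgG3 junction of that CDR3 with its V and J gene, and all are written 5′ to 3′ as the tables give them.
IGHV1-11, IGHJ2, GRGELFDY, form 1: tgtggaaggggggaactgtttgactactgg
IGHV1-11, IGHJ2, GRGELFDY, form 2: tgtggaaggggggaactTtttgactactgg
IGHV1-11, IGHJ2, GRGELFDY, form 3: tgtggaaggggggaGctgtttgactactgg
IGHV8-5, IGHJ3, AQMRGFAY, form 1: tgtgctcaaatgagggggtttgcttactgg
IGHV8-5, IGHJ3, AQMRGFAY, form 2: tgtgctcaaatgCgAgggtttgcttactgg
IGHV1-11, IGHJ1, GRGEYFDV, form 1: tgtggaagaggagagtacttcgatgtctgg
IGHV1-11, IGHJ1, GRGEYFDV, form 2: tgtggaagGggGgagtacttcgatgtctgg

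GRGELFDY with IGHV1-11 and IGHJ2 was listed as IgG3 in 6 of the 8 spleen and lymph node replicates, covering all 4 replicate numbers, through 6 different junctions. Form 1 had 24 IgG3 copies in lymph node replicate 1 and 78 in spleen replicate 1. Form 2 had 68 IgG3 copies, all in spleen replicate 2, and form 3 had 9, all in spleen replicate 3. The same 8 amino acids were thus encoded by different nucleotides in different replicates. Of 246 copies of this CDR3 in the 8 replicates, 196 were IgG3 (79.7%), 37 IgM, 7 IgG2, 6 IgA and 0 IgG1.

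AQMRGFAY with IGHV8-5 and IGHJ3 was listed as IgG3 in 6 replicates of all 4 numbers, through 8 junctions. Its form 1 had 60 IgG3 copies in 5 replicates, with 4 and 13 copies in lymph node replicates 3 and 4 and 3, 21 and 19 in spleen replicates 2, 3 and 4. Form 2 had 11 IgG3 copies in 3 replicates. IgG3 made up 86 of 160 copies of this CDR3 (53.8%), and 1 copy was IgG1. GRGEYFDV with IGHV1-11 and IGHJ1 was IgG3 in 4 replicates of 3 numbers, through 6 junctions and 177 of 269 copies. Its form 1 had 123 IgG3 copies, all in spleen replicate 4, and form 2 had 37 in lymph node replicate 1, 9 in spleen replicate 1 and 3 in spleen replicate 3. In lymph node replicate 1, a sequence of form 2 was listed with 31 IgM copies in technical library 1 and 35 IgG3 copies in library 2.

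By this count of identical V gene, J gene and CDR3 amino acids, 21 of 5540 IgG3 combinations (0.379%) were found under at least 2 replicate numbers and 5 under at least 3. IgG1 had 6 of 3489 (0.172%) under at least 2 numbers and 0 under 3. IgG2 had 97 of 26205 (0.370%) under at least 2 numbers, near the IgG3 share, and IgA had 374 of 54454 (0.687%), above it. IgM, with 926424 combinations, had 20961 (2.26%) under at least 2 numbers. The isotypes differ in depth, and the shares were not tested against each other. The other 2 IgG3 combinations under 3 numbers were rare among IgG3: ADYGNLDV with IGHV3-6 and IGHJ1 had 17 IgG3 copies beside 15627 IgA copies, all of them in spleen replicate 2, and ARRGDGYYFDY with IGHV1-76 and IGHJ2 had 4.

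The isotype of a sequence was not fixed between the 2 technical libraries of a replicate, and every result above and below rests on these calls. Within 1 library nearly every sequence had 1 isotype, since 105 of 2095175 sequence entries (0.00501%) had more. Between the technical libraries of the spleen and lymph node replicates, 692 of 836 IGHG1 sequences that were also found in the other library were listed as IGHG1 there (82.8%). The same count for IGHG3 was 686 of 1027 (66.8%), with 197 listed as IGHM, 79 as IGHG2 and 50 as IGHA. IGHM and IGHA kept their isotype in 91.6% and 92.6%, and IGHD in 21.5%. In the positive control IGHG1 kept its isotype in 43.7% and IGHG3 in 29.9%.

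**Figure D1:**
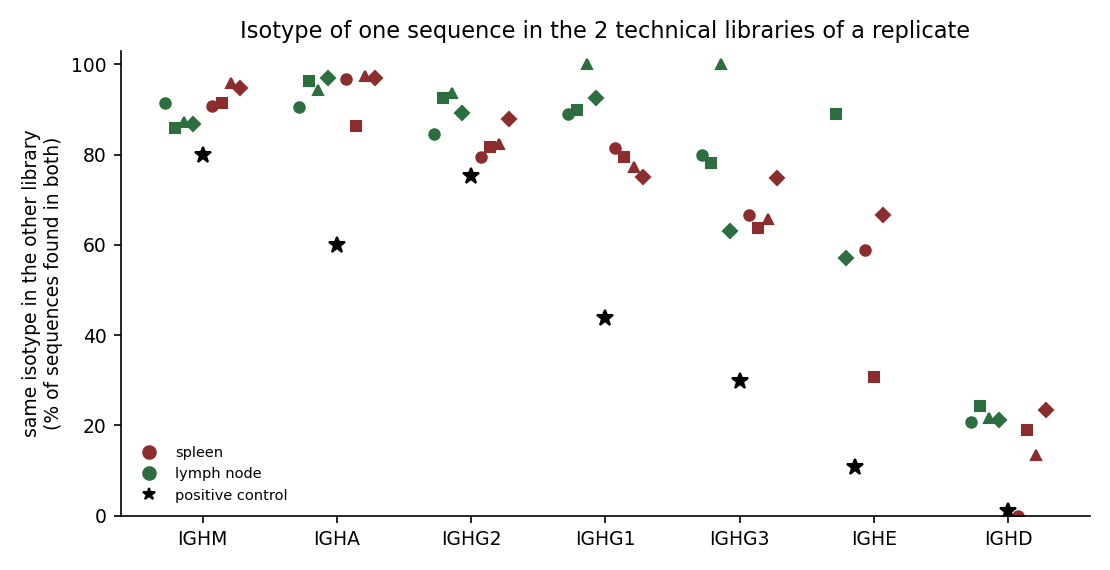
The y axis gives the percentage of sequences of an isotype, among those found in both technical libraries of a replicate, that had the same isotype in the other library, with 1 point per replicate for each of the 7 isotypes on the x axis. Spleen is brown, lymph node green and the positive control a black star. The IGHG3 points of the spleen lie between 63.8% and 74.7%, and the control's IGHG1 and IGHG3 stars lie at 43.7% and 29.9%.

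Some of the most abundant member sequences were among those with another isotype in the second library. With at least 20 copies in each library, 41 sequences had a member in 1 library and another isotype in the other, and in 40 of them the copies in the libraries were within 2-fold of each other. In lymph node replicate 4, an IGHV5-16 and IGHJ1 sequence without V mismatches had 603 IGHE copies in library 1 and 601 IGHG1 copies in library 2. In spleen replicate 4, the IGHV5-16 and IGHJ2 sequence AIYDYDDYFDY had 194 IGHM copies in library 1 and 199 IGHG3 copies in library 2. In spleen replicate 3, ARRGYFDY with IGHV7-3 had 127 IGHG1 copies in library 1 and 138 IGHG2 copies in library 2. Why the isotype differed was not tested. Results are therefore also given for clonotypes listed under the same isotype in both libraries where this changes them.

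IgG1 and IgG3 were a small share of copies in lymph node and spleen and were nearly undetected in skin. IGHG1 took 0.744%, 1.61%, 0.269% and 1.06% of copies in lymph node replicates 1 to 4, and 3.41%, 0.230%, 0.225% and 0.214% in spleen replicates 1 to 4. Spleen replicate 1 stood far above the other 3 spleen replicates, and the other 3 lay below all lymph node replicates. IGHG3 took 0.197%, 0.360%, 0.0559% and 0.133% in lymph node and 0.481%, 0.739%, 0.213% and 0.415% in spleen. The IGHG3 ranges of the tissues overlapped, with lymph node replicate 2 inside the spleen range. The positive control held 1.503% IGHG1 and 2.54% IGHG3, the latter above every tissue replicate.

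The mean share of IGHG1 was 1.02% ± 1.60 (SD, n = 4) in spleen and 0.921% ± 0.564 in lymph node, a difference far within the spread (exact two-sided permutation test, p = 1). Without spleen replicate 1 the difference turned, to -0.698 percentage points (exact p = 0.0571), and without lymph node replicate 3 it was -0.118. The mean share of IGHG3 was 0.462% ± 0.217 in spleen and 0.187% ± 0.129 in lymph node (exact permutation p = 0.0571, adjusted over the 7 isotypes 0.133), which did not pass. The smallest p that 4 against 4 replicates allow is 0.0286.

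In skin, replicate 1 had 1 copy of IGHG1 in 5356 copies (0.0187%, exact Clopper-Pearson 95% interval 0.000473% to 0.104%). That copy used IGHV1-7 and IGHJ2, had the CDR3 ARSSNSYFDY and had no V mismatch. Skin replicates 2, 3 and 4 had 0 of 7495, 4976 and 5635 copies of IGHG1, and all 4 skin replicates had 0 copies of IGHG3. A count of 0 allows shares of up to 0.0560%, 0.0400%, 0.0603% and 0.0532% in skin replicates 1 to 4, from a limit of 3 copies. Intervals and limits cover counting error only and take copies as independent.

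The skin shares as measured lay below the spleen shares for IGHG1 and IGHG3 (exact permutation p = 0.0286, adjusted 0.04 for both) and below the lymph node shares (adjusted 0.0333 for both). Without any one skin replicate, or any one spleen replicate, the adjusted p against spleen was 0.05 or above, against lymph node it was 0.0667 or 0.08 without any one skin replicate, and without spleen replicate 1 the IGHG1 difference from spleen moved from -1.02 to -0.218 percentage points. With each clonotype counted once, the adjusted exact permutation p against spleen was 0.0667 for IGHG3 and 0.16 for IGHG1. As an alternative, every share below 0.0603%, the highest of the skin limits, was set to 0.0603%. This also raised the IGHG3 share of lymph node replicate 3. The differences from spleen were then -0.402 for IGHG3 and -0.960 for IGHG1 (adjusted exact p = 0.05 for both), which did not pass. The difference from lymph node was -0.861 percentage points for IGHG1 (exact permutation p = 0.0286, adjusted 0.05) and -0.127 for IGHG3 (exact p = 0.143). The IGHG3 share of lymph node replicate 3, 0.0559%, is itself inside the range of the skin limits. IGHG3 in skin was thus not detectable at this depth at a level like that of lymph node replicate 3. Skin replicates held 4976 to 7495 copies, lymph node 93191 to 228065, spleen 162168 to 1362176 and the control 645566.

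**Figure D2:**
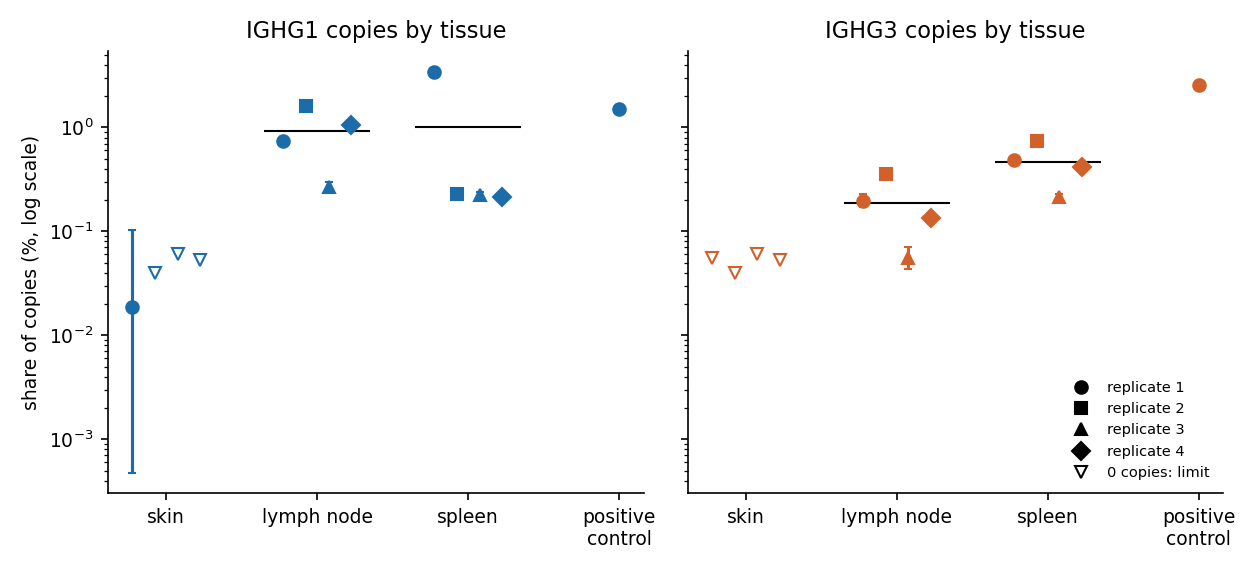
The y axis gives the share of copies on a log scale for IGHG1 (left) and IGHG3 (right), with tissues on the x axis and 1 symbol per replicate. Horizontal lines are means of 4 replicates, vertical bars are exact 95% intervals of counting error, and open triangles are the limits set by 0 copies. Spleen replicate 1 stands at 3.41% IGHG1, above the other spleen replicates at 0.214% to 0.230%.

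The balance between the members varied widely among the spleen replicates. Lymph node held 3.77, 4.48, 4.81 and 7.97 IGHG1 copies per IGHG3 copy in replicates 1 to 4. Spleen held 7.10, 0.312, 1.06 and 0.515, and the control 0.591. Every lymph node replicate and spleen replicate 1 had more IGHG1 than IGHG3, while spleen replicates 2 and 4 and the control had more IGHG3. The log2 ratio was 0.07 ± 1.98 in spleen and 2.33 ± 0.46 in lymph node (n = 4 each, exact permutation p = 0.114). Leaving out spleen replicate 1 gave a difference of -3.19 with exact p = 0.0286. This ratio was added after the data were seen.

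Across the 8 spleen and lymph node replicates, the IGHG1 share of copies ranked most like IGHE (Spearman rho 0.81) and IGHG2 (0.738). The IGHG3 share ranked most like IGHA (0.595) and then IGHE (0.167). Shares in 1 replicate add to a fixed total, and the points mix tissues, so these values are descriptions. In lymph node replicate 4, 603 of 778 IGHE copies and 601 of 2310 IGHG1 copies were the same sequence, listed differently in the 2 libraries.

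V segments of IgG1 carried more mismatches than those of IgG3, and both carried more than IgM. Mutation is the percentage of aligned V bases that differ from the assigned V gene, averaged over clonotypes. IGHG1 had 1.53%, 2.46%, 1.93% and 1.89% in lymph node replicates 1 to 4, 3.34%, 2.56%, 2.28% and 2.38% in spleen replicates 1 to 4, and 2.06% in the control. IGHG3 had 1.46%, 1.67%, 1.74% and 1.24% in lymph node, 1.90%, 1.65%, 1.70% and 1.71% in spleen, and 1.68% in the control. IGHG1 was above IGHG3 in each of the 8 replicates, by 0.0661 to 1.45 percentage points, and in the control.

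Over the 8 replicates IGHG1 averaged 2.30% ± 0.547 and IGHG3 1.64% ± 0.199, a mean difference of 0.662 (exact sign-flip test over replicates, p = 0.00781, adjusted over 9 isotype pairs 0.0117). The smallest p this test allows is 0.00781. The sign-flip tests and the V gene tests take the 8 spleen and lymph node replicates as independent samples, which the labels do not settle. Spleen and lymph node replicates of the same number shared 15 IGHG1 and 28 IGHG3 clonotypes, and those of different numbers 1 and 13. The 8 replicates may therefore be fewer independent units, and the p-values of these tests too small. With 4 units the smallest sign-flip p is 0.125. IGHM averaged 0.542%, below IGHG1 by 1.76 and below IGHG3 by 1.09, and IGHD averaged 0.600% (adjusted p = 0.0117 in these exact tests). IGHA averaged 2.76%, above IGHG3 in 8 of 8 replicates (adjusted 0.0117) and above IGHG1 in 7 of 8 (adjusted exact p = 0.0502). IGHG2 averaged 1.84%, between the members, and neither difference passed (adjusted 0.0615 for IGHG1 and 0.125 for IGHG3). With copies as weights IGHG3 lay above IGHG2, by 0.408 (adjusted exact p = 0.0100). Among clonotypes listed under the same isotype in both libraries the IGHG1 to IGHG3 difference was 1.61, and IGHG1 then also passed against IGHG2 by 1.25 (adjusted exact p = 0.0219). Such IGHG3 clonotypes numbered 2 to 27 per lymph node replicate and 5 to 423 per spleen replicate. For IGHG1 they numbered 13 to 81 and 34 to 178. Some of these replicate means thus rest on few clonotypes.

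**Figure D3:**
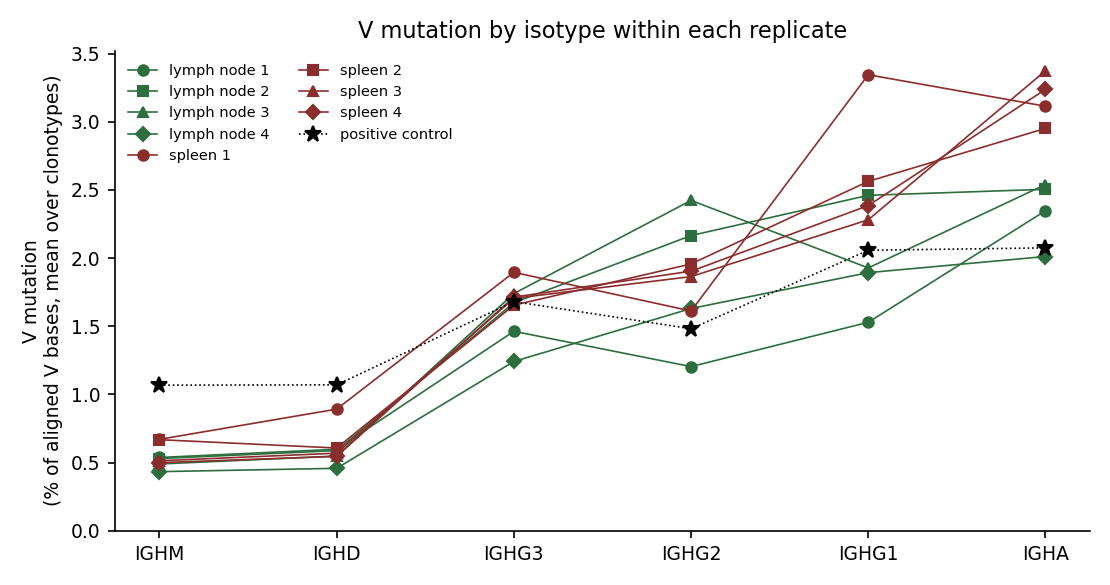
The y axis gives mean V mutation in percent of aligned V bases over clonotypes, the x axis 6 isotypes, and each line joins the values of 1 replicate. Lymph node is green, spleen brown and the control dotted black. IGHM and IGHD lie lowest in every tissue replicate, and IGHG1 lies above IGHG3 in each line, by as little as 0.0661 percentage points in lymph node replicate 1.

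Clonotypes without any V mismatch were 15.5% to 22.5% of IGHG1 and 25% to 31.1% of IGHG3 in lymph node, 15.7% to 19.0% and 24.02% to 33.9% in spleen, and 25.1% and 28.6% in the control. Clonotypes above 5% mutated V bases were most frequent for IGHG1 in spleen replicate 1, at 23.7%. Between tissues, IGHG1 mutation averaged 2.64% ± 0.482 in spleen and 1.95% ± 0.384 in lymph node (n = 4, exact permutation p = 0.0857). IGHG3 averaged 1.74% ± 0.106 and 1.53% ± 0.225 (exact p = 0.2), so neither passed. Whether the isotype differences were alike in both tissues was tested for 18 measures, and none passed after adjustment (lowest adjusted exact permutation p = 0.429). A single measure could not have passed. The mutation of IGHG3 minus IGHA, -1.43 in spleen and -0.822 in lymph node, had the smallest possible exact permutation p, 0.0286, and still 0.429 after adjustment. The test therefore does not show that the tissues were alike.

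IgG3 had the shorter CDR3. IGHG1 clonotypes averaged 12.3, 12.1, 11.6 and 12.0 amino acids in lymph node replicates 1 to 4 and 12.1, 12.2, 11.9 and 11.8 in spleen. IGHG3 clonotypes averaged 10.6, 11.4, 11.8 and 11.5 in lymph node and 11.5, 12.1, 11.6 and 11.5 in spleen, longer than IGHG1 in lymph node replicate 3 alone. IGHG1 averaged 12.0 ± 0.229 amino acids and IGHG3 11.5 ± 0.420 over 8 replicates, with IGHG1 longer in 7 of 8 (exact sign-flip test, adjusted p = 0.0301). IGHG3 also differed from IGHG2 by -0.861, from IGHA by -0.645, from IGHM by -0.594 and from IGHD by -0.829 amino acids (adjusted exact p = 0.0234 for each). Without any one of 6 replicates the IGHG1 to IGHG3 comparison had an adjusted exact p of 0.0603. With copies as weights none of the 9 pairs passed, nor among clonotypes found in both libraries, where the IGHG1 to IGHG3 difference was 0.473 (adjusted exact p = 0.314). In the control both members averaged 11.7 amino acids.

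IgG1 clonotypes held more copies each than IgM clonotypes in every spleen and lymph node replicate, and IgG3 clonotypes in 6 of 8. IGHG1 had 7.79, 7.02, 2.79 and 8.19 copies per clonotype in lymph node replicates 1 to 4 and 8.41, 2.62, 2.82 and 2.43 in spleen. IGHG3 had 4.38, 4.105, 1.68 and 1.96 in lymph node and 5.74, 2.38, 2.38 and 3.74 in spleen. The mean was 5.26 ± 2.80 copies per clonotype for IGHG1, 3.30 ± 1.42 for IGHG3, 2.32 for IGHM, 11.5 for IGHG2 and 11.9 for IGHA (n = 8), and all 9 isotype pairs passed, IGHG1 against IGHG3 at an adjusted exact sign-flip p of 0.0469. IGHG3 lay below IGHM in lymph node replicates 3 and 4, at 1.68 against 2.12 and 1.96 against 2.01. IGHG3 against IGHM no longer passed in 7 of 8 cases with a replicate left out (adjusted exact p up to 0.0938), nor did IGHG1 against IGHG3 in 7 of 8. This measure rises with depth, so the 2 isotypes of each pair were also thinned to equal copies in each replicate. IGHG1 then still exceeded IGHM in 8 of 8 replicates (5.26 against 1.17) and IGHG3 did too (3.30 against 1.13), with adjusted exact sign-flip p = 0.0176 for each. IGHG1 and IGHG3 thinned to equal copies had 3.26 and 3.15 (adjusted exact p = 0.923), and neither differed detectably from IGHG2 or IGHA. In the control copies per clonotype were 1.26 and 1.28.

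The largest clonotypes made up more of each member in the tissues than in the control. The largest clonotype held 4.52% to 28.4% of IGHG1 copies in lymph node and 4.38% to 12.7% in spleen. For IGHG3 it held 5.17% to 21.0% and 3.12% to 13.3%. In the control the largest held 0.464% of IGHG1 and 0.597% of IGHG3. Clonotypes listed under the member in both libraries were 4.88% to 16.7% of IGHG3 clonotypes and 12.6% to 15.96% of IGHG1 clonotypes in lymph node.

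The large clonotypes found in both libraries differed in mutation. In spleen replicate 1, IGHV1-55 with IGHJ2 and CDR3 ARRDMVTDFDF had 381 and 318 IGHG1 copies in libraries 1 and 2, with 11.1% of V bases mutated and 722 IGHA copies of the same clonotype. Its lineage, meaning clonotypes linked at 85% CDR3 identity within a V gene, a J gene and a CDR3 length, held 72 IGHG1 clonotypes and 1384 IGHG1 copies. In lymph node replicate 2, the 2 largest IGHG1 clonotypes used IGHV6-6 and IGHJ3 and belonged to 1 lineage of 32 clonotypes and 1105 copies. The junctions of the largest clonotypes are printed as examples of expanded IgG1 and IgG3 sequences, in lower case throughout.
IGHG1, spleen replicate 1, ARRDMVTDFDF: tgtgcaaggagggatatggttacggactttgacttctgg
IGHG1, lymph node replicate 2, TTYYNLF: tgtaccacctactataatcttttctgg
IGHG1, lymph node replicate 2, TTYYNLY: tgtaccacctactataatctttactgg
IGHG3, spleen replicate 4, ARHLGREWYFDV: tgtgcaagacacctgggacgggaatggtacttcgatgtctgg
IGHG3, spleen replicate 2, ARALSGYYFDY: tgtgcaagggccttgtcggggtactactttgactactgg

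TTYYNLF had 501 copies with 2.05% of V bases mutated, and TTYYNLY had 446 with 2.60%. The largest IGHG3 clonotype of spleen replicate 4, ARHLGREWYFDV with IGHV9-3 and IGHJ1, had 191 and 192 copies in the libraries, 1.70% mutated V bases and a lineage of 24 clonotypes, and 6 of its IGHG3 copies lay in lymph node replicate 4. ARALSGYYFDY with IGHV5-17 and IGHJ2, the largest IGHG3 clonotype of spleen replicate 2, had 314 copies and 0.0487% mutated V bases. IGHG1 clonotypes of lymph node included ARDGWDSFAY with IGHV5-4 in replicate 1, with 197 copies and 0.0452% mutated bases, and TRDDMHYYAMDS with IGHV5-4 in replicate 4, with 362 copies and 4.05%. Expanded clonotypes of both members thus included nearly unmutated and clearly mutated ones.

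IgG1 clonotypes used IGHJ3 more often than IgM clonotypes did. IGHJ3 was used by 18.0%, 16.4%, 31.9% and 22.3% of IGHG1 clonotypes in lymph node replicates 1 to 4, by 26.3%, 21.6%, 24.5% and 24.7% in spleen and by 26.6% in the control. The mean was 23.2% ± 4.88 for IGHG1 and 9.76% ± 2.25 for IGHM, and the ranges over the 8 replicates did not overlap. The difference was 13.4 percentage points (higher in 8 of 8, exact sign-flip p = 0.00781, adjusted over 4 J genes 0.0313). Leaving out 1 replicate kept the difference between 11.9 and 14.2, although the adjusted p was then 0.0625 in 7 of 8 cases, the smallest that 7 replicates allow where 1 of the 4 genes reaches the lowest p.

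The other J genes of IGHG1 did not pass. IGHJ4 was used by 26.96% of IGHG1 and 35.2% of IGHM clonotypes (adjusted exact p = 0.0625), IGHJ1 by 14.8% and 20.03%, and IGHJ2 by 35.07% and 34.98%. No J gene of IGHG3 passed against IGHM. IGHG3 used IGHJ1 in 21.0%, IGHJ2 in 37.8%, IGHJ3 in 11.4% and IGHJ4 in 29.8% of clonotypes, the last with adjusted exact p = 0.0938. IGHJ1 reached 41.9% of IGHG3 clonotypes in lymph node replicate 4, and IGHJ3 was 18.0% in the control.

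**Figure D4:**
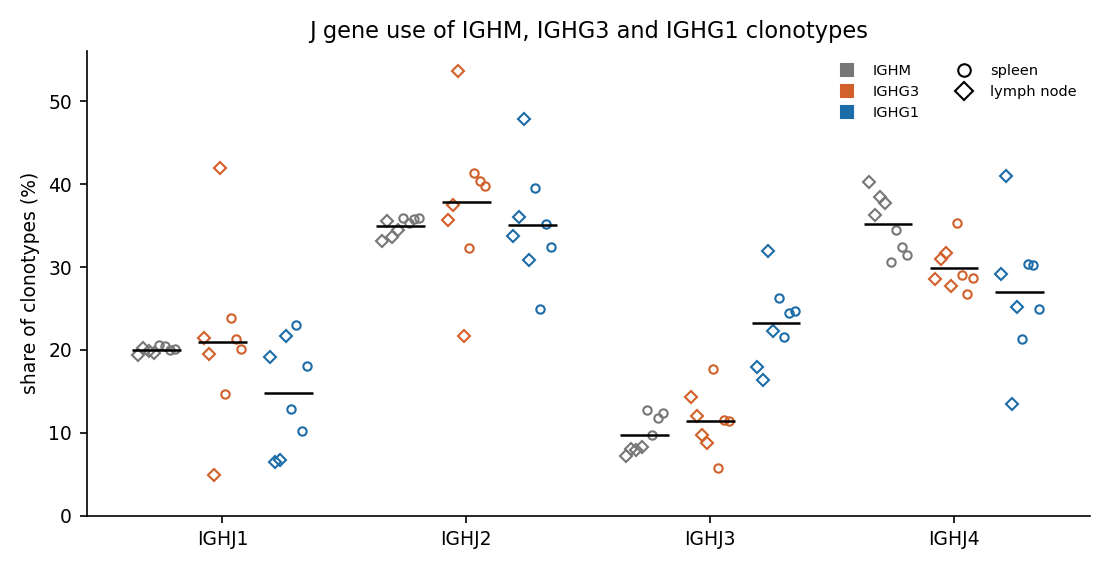
The y axis gives the percentage of clonotypes of an isotype that use each of the 4 J genes, for IGHM, IGHG3 and IGHG1, with 1 point per replicate and lines at the mean of the 8 spleen and lymph node replicates. IGHG1 points for IGHJ3 lie between 16.4% and 31.9%, and those of IGHM between 7.16% and 12.8%.

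The V genes called were IGHV1-22, at a lower share in IgG1 than in IgM, and IGHV1-62-2 and IGHV8-12, at lower shares in IgG3. Clonotypes per V gene were compared within replicates with the quasi-likelihood test of edgeR, and p-values were adjusted by Benjamini-Hochberg. For IGHG1 against IGHM, 74 V genes were tested and 1 was lower in IGHG1 (1.35% of those tested), with 11 at an unadjusted p under 0.05. For IGHG3 against IGHM, 75 were tested and 2 were lower in IGHG3 (2.67%), again with 11 at an unadjusted p under 0.05. These genes passed the filter on low counts through their IGHM counts, since the members had few clonotypes there. The calls of these genes, their p-values and the counts of calls are therefore descriptions. They show no direction of V gene use as a whole.

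IGHV1-22 (chromosome 12, 114746273 to 114746566 on GRCm38) had 0, 6, 0 and 1 IGHG1 clonotypes in lymph node replicates 1 to 4 and 8, 14, 2 and 10 in spleen. It made up 0.759% of IGHG1 and 2.53% of IGHM clonotypes, and the log2 difference was -1.58 (SE 0.39, edgeR adjusted p = 0.0150). The adjusted p was 0.0862 without spleen replicate 1 and 0.0522 with no trend of the dispersion. Among clonotypes listed in both libraries IGHV1-22 had too few to be tested, and the gene called there was IGHV6-3, at -2.88 (edgeR adjusted p = 0.00704).

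IGHV1-62-2 (chromosome 12, 115446417 to 115446710) had 0 IGHG3 clonotypes in all lymph node replicates and 0, 32, 2 and 0 in spleen, so nearly all came from spleen replicate 2. Its share was 0.156% of IGHG3 and 1.75% of IGHM clonotypes (log2 difference -2.56, SE 0.53, edgeR adjusted p = 0.000158). It passed with each replicate left out, at -4.32 to -2.23. IGHV8-12 (115647945 to 115648245) had 0, 1, 0 and 0 IGHG3 clonotypes in lymph node and 2, 37, 1 and 2 in spleen, with 0.419% against 1.505% of IGHM (log2 difference -1.66, SE 0.50, edgeR adjusted p = 0.0327). It no longer passed without lymph node replicate 2 or 4 or spleen replicate 3 or 4, nor with DESeq2 (adjusted p = 0.0953) or, in edgeR, with clonotypes of at least 2 copies (adjusted p = 0.155). Neither gene had enough clonotypes to be tested among those listed in both libraries, where edgeR called 0 of 15 V genes for IGHG3, with 3 at an unadjusted p under 0.05. IGHV8-5, the V gene of a recurrent IgG3 sequence printed above, was higher in IGHG3 than in IGHM with DESeq2 (log2 difference 1.99, adjusted p = 0.0222), and in edgeR with clonotypes of at least 2 copies (2.22, adjusted p = 0.00266), with no trend of the dispersion (1.55, adjusted p = 0.0484) and without spleen replicate 1 or 2, but not with the settings used here. It is named after its values were seen.

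IGHG3 was compared with IGHG1 at 6 V genes that had enough clonotypes, and edgeR called 0 of them (0%), with 2 at an unadjusted p under 0.05. These were IGHV3-6, with a log2 difference of 1.02 (edgeR adjusted p = 0.0548), and IGHV1-55, with -0.89 (edgeR adjusted p = 0.0583). With no trend of the dispersion, an alternative chosen after seeing the data, both passed in edgeR, at adjusted p = 0.0375 and 0.0416.

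The V genes used most by IGHG1 were IGHV1-55 with 6.83% of clonotypes, IGHV1-26 with 6.69%, IGHV1-82 with 4.15%, IGHV1-64 with 4.08% and IGHV1-18 with 3.71%. Those of IGHG3 were IGHV1-26 with 7.87%, IGHV3-6 with 6.38%, IGHV1-18 with 5.22%, IGHV1-53 with 4.67% and IGHV1-82 with 3.71%. None of these passed against IGHM. IGHV1-55 of IGHG1 reached 17.8% in spleen replicate 1 and averaged 5.26% without it, and IGHV1-18 of IGHG1 reached 12.6% in lymph node replicate 3 and averaged 2.44% without it. IGHV1-18 of IGHG3 rests on lymph node replicate 3, with 26.8% from 11 clonotypes, and averaged 2.14% without it. IGHV3-6 of IGHG3 reached 19.6% in lymph node replicate 4 and averaged 4.49% without it. IGHV1-11, the V gene of 2 of the recurrent IgG3 sequences printed above, did not reach the filter on low counts with the settings used here. Without the filter, edgeR called it higher in IGHG3 than in IGHM (log2 difference 3.74, adjusted p = 3.72e-19). It was also called in spleen alone (3.89, edgeR adjusted p = 4.56e-13) and by copies per V gene (4.96, edgeR adjusted p = 5.75e-05), but not in lymph node alone. IGHV1-11 is named after its values were seen.

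V gene lists were followed whole. The B-1 list (IGHV11-1, IGHV11-2, IGHV12-3), V genes known from peritoneal B-1 cells, held a median of 0.152% of IGHG1, 0.315% of IGHG3 and 0.157% of IGHM clonotypes over the 8 replicates. The means were 0.902%, 0.675% and 0.154%. With the settings used here, 0 of 3 genes had enough clonotypes to be tested. The IGHG1 mean, 0.902%, rests on spleen replicate 2, where IGHV12-3 had 65 IGHG1 clonotypes and the list held 5.51%. The highest IGHG3 value, 2.38%, is 1 clonotype of 42 in lymph node replicate 1. Without the filter on low counts, edgeR called IGHV12-3 higher than in IGHM for IGHG1 (log2 difference 3.63, adjusted p = 0.00109) and IGHG3 (3.06, adjusted p = 5.74e-08). Of its IGHG3 clonotypes, 46 lay in spleen replicate 2, 5 in spleen replicate 3 and 1 in lymph node replicate 2. By copies per V gene, edgeR called IGHV11-2 lower for IGHG1 (-4.40, adjusted p = 0.00115) and IGHG3 (-3.71, adjusted p = 0.00396). The S107 list (IGHV7-1 to IGHV7-4), known from antibodies to phosphorylcholine, held a mean of 1.08% of IGHG1, 2.003% of IGHG3 and 1.72% of IGHM clonotypes. Of its 4 genes 2 were tested and 0 called, with median log2 differences from IGHM of -1.24 for IGHG1 and 0.16 for IGHG3 against -0.33 and -0.29 over all V genes. The IGHV1-72 group (IGHV1-72, IGHV1-53, IGHV1-64) held means of 9.68%, 9.86% and 9.55%, with 3 of 3 tested, 0 called and median log2 differences of -0.27 and -0.29.

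Part of the member clonotypes were also found under another isotype of the same replicate. Of IGHG1 clonotypes, 8.99%, 15.6%, 11.8% and 15.2% in lymph node replicates 1 to 4 and 15.3%, 28.7%, 30.8% and 28.5% in spleen held another isotype, with 18.7% in the control. For IGHG3 these shares were 16.7%, 27.5%, 26.8% and 18.9% in lymph node, 25%, 25.5%, 31.1% and 30% in spleen and 27.8% in the control. The means were 19.4% ± 8.56 for IGHG1 and 25.2% ± 5.05 for IGHG3 (n = 8), with IGHG3 higher in 7 of 8. The shares depend on the depth of the other isotypes and on the isotype calls, and no test was made.

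IGHG3 clonotypes were shared with IGHM in 14.4%, IGHG2 in 11.6%, IGHA in 2.60% and IGHG1 in 2.44%. IGHG1 clonotypes were shared with IGHG2 in 10.4%, IGHM in 6.73%, IGHA in 4.31% and IGHG3 in 2.05%. Sharing of IGHG1 with IGHA was 0% to 0.355% in lymph node and 5.02%, 9.19%, 12.4% and 7.36% in spleen replicates 1 to 4, without overlap of the tissues. These shares can vary with the depth of the partner. With the other isotypes, IGHE left out, thinned to the copies of the smallest of them in each replicate, IGHG2 was a more frequent partner than IGHM in 8 of 8 replicates for both members. IGHG3 was then shared with IGHG2 in 6.34% and with IGHM in 1.89%, and IGHG1 in 4.07% and 0.463%. Sharing with any of them was 6.16% for IGHG1 and 9.79% for IGHG3, at depths that differ between the members. IGHG1 thinned in this way was shared with IGHA in 0%, 0.190%, 0% and 0.00896% in lymph node replicates 1 to 4. In spleen replicates 1 to 4 it was 0.976%, 2.95%, 1.49% and 1.30%. The copies kept differed, at 69 to 821 in lymph node and 780 to 10072 in spleen, and the tissue difference was not tested. With the partner required in the other technical library, sharing with any isotype was 11.1% for IGHG1 and 16.1% for IGHG3. This setting keeps sequences whose listed isotype differed between the libraries, so it does not guard against such calls. IGHG1 clonotypes that were shared held 15.5 copies on average and the others 3.501, and their V mutation was 2.01% and 2.36%. The shared clonotypes had the lower mutation in 7 of 8 replicates for IGHG1 and in 5 of 8 for IGHG3, and neither was tested.

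**Figure D5:**
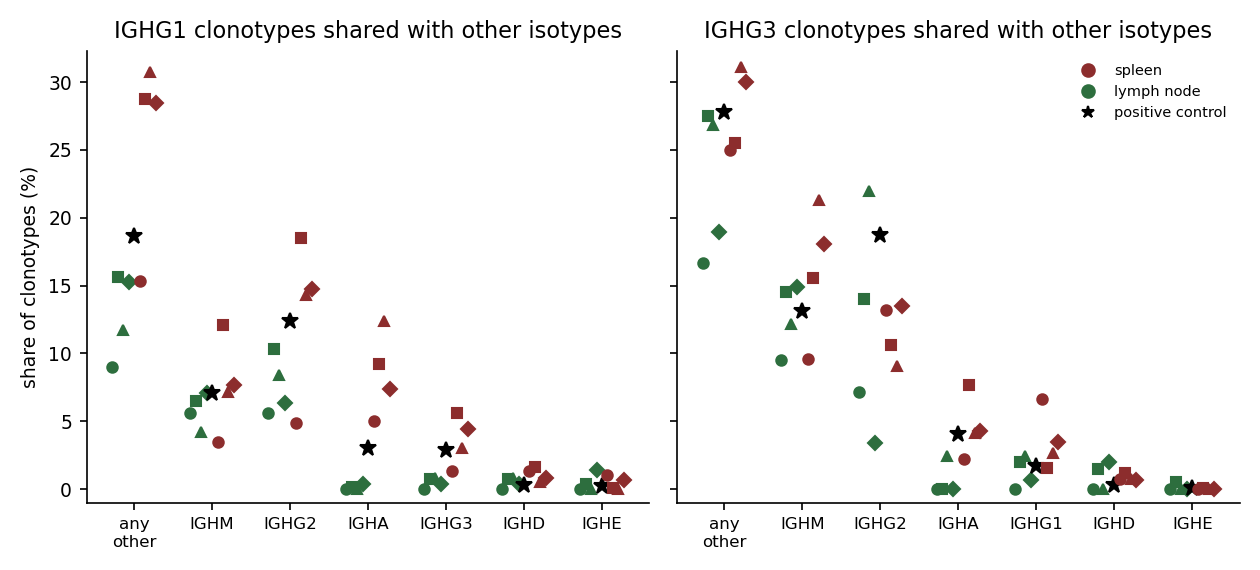
The y axis gives the percentage of clonotypes of IGHG1 and IGHG3 that also held copies of each other isotype named on the x axis in the same replicate, with 1 point per replicate and the control as a star. IGHG1 with IGHA lies at 0.355% or less in lymph node and at 5.02% to 12.4% in spleen.

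Lymph node and spleen replicates with the same number shared more member clonotypes than those with different numbers. On average 1.75% of IGHG1 lymph node clonotypes were found as IGHG1 in the spleen replicate of the same number and 0.07% in the others, which are 15 and 1 shared clonotypes. For IGHG3 these were 5.45% and 1.45%, from 28 and 13 clonotypes. The exact one-sided permutation test over 24 pairings of the numbers gave p = 0.0417 for each member, the smallest it allows. With 1 number left out the p was 0.167, again the smallest possible.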

How the data were processed

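Reverse transcription used primers in the constant region with a molecular identifier, and amplification a mix of V primers, spanning framework 2 to the start of the constant region, per the labels' protocols. The deposited tables give each sequence a whole-number count, called copies here, and no source used here says if identifiers or reads were counted. The deposited V, J, constant gene and alignment columns (other values, such as names and strings) were used as given. The build is mm10 per the submitters' processing notes, with the aligner not given in the sources used here.

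From these, the technical libraries of a replicate were summed, clonotypes formed, and lineages linked at 85% CDR3 identity. Spleen and lymph node were compared by exact permutation of 4 against 4 replicates (70 splits), isotypes by exact sign flips over 8 replicates (256 flips), both two-sided with Benjamini-Hochberg adjustment at 0.05. V gene use was tested with edgeR 4.0.16 (R 4.3.3) with TMM scaling, filterByExpr and the sample as a block, and DESeq2 1.42.0 was an alternative. In simulated tables of 75 V genes with known changes, 4-fold changes were called in 9 of 9 V genes for IGHG1 against IGHM and 11 of 11 for IGHG3, and 2-fold changes in 7 of 7 and 2 of 5, while 2 of 59 (3.39%) and 1 of 59 V genes without a change were called. The step for IGHG3 against IGHG1 ran on 4 V genes and gives no such check.

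V genes named are those past the threshold, at most 10 per direction, the 5 with the highest share of each member, and the lists. Named expanded clonotypes are among the largest of each member per replicate that were listed under that member in both technical libraries. The members and lists were chosen with earlier results of these data known. The labels do not pair same-numbered replicates, and the tests of tissues do not use the numbers as pairs. Of 188 V gene names, 119 matched RefSeq's table of GRCm38.p6. IGHG2 is 1 name in the tables, where RefSeq has several IgG2 genes.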

Additional observations from a re-analysis of the deposited data

Results flagged for a closer look

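In 46 groups of 4 replicates checked for a sample far from the others, 4 stood out by Dixon's criterion, and chance flags about 1 in 20. In spleen replicate 1, IGHG1 was 3.41% of copies, where the other 3 spleen replicates lay between 0.214% and 0.230%. In the same replicate IGHG1 had 8.41 copies per clonotype, against 2.43 to 2.82 in the others. IGHG1 clonotypes of spleen replicate 1 shared with another isotype were 15.3%, against 28.5% to 30.8%. The CDR3 of IGHG3 averaged 12.1 amino acids in spleen replicate 2 and 11.5 to 11.6 in the other spleen replicates.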

How the results depend on the processing

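Over 75 results, alternatives other than leaving out a replicate kept direction and call in 256 of 467 cases, lost the call in 104, gained it in 11, moved the value in 70 and turned the direction in 26, of which 1 had passed the threshold. Leaving out a replicate gave 488, 70, 4, 17 and 10 of 589. Unless a cause is given, it was not tested.

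The spleen minus lymph node share of IGHG1 (0.0993) was -0.176 with clonotypes of at least 2 copies, -0.100 in technical library 2 alone, -4.45 as a share of class-switched copies and -1.49 with clonotypes found in both libraries, and -0.698 to 0.368 with a replicate left out. That of IGHG3 was -0.309 as a share of class-switched copies. Skin minus spleen was -0.473 (IGHG3) and -0.716 (IGHG1) with each clonotype counted once, -0.481 and -1.03 with clonotypes of at least 2 copies, -0.402 and -0.960 with shares below 0.0603% raised to it, and with a replicate left out -0.545 to -0.370 and -1.28 to -0.218. Skin minus lymph node was -0.136 and -0.246 counted once, -0.127 and -0.861 with shares so raised, and -0.230 to -0.129 and -1.13 to -0.686 with a replicate left out.

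With the replicate block, skin minus spleen was -0.462 and -1.02 and skin minus lymph node -0.187 and -0.917, all at exact p = 0.125, the smallest that 4 pairs allow. Within numbers, spleen exceeded lymph node in 4 of 4 for the IGHG3 share and for IGHG1 mutation, in 1 of 4 for the IGHG1 share and 2 of 4 for IGHG3 mutation. V gene deviations of same-numbered spleen and lymph node correlated at r of -0.169, -0.265, 0.0659 and -0.0176, so they did not pair the numbers, while member clonotypes were shared more within numbers. Without the replicate block, tests of isotypes called 2 J genes for IGHG1 and 1 for IGHG3, and 3 V genes for IGHG1 against IGHM and 1 for IGHG3 against IGHG1.

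Spleen minus lymph node V mutation of IGHG3 was -0.217 with copies as weights and -0.0495 with clonotypes of at least 2 copies. Copies per clonotype of IGHG3 were -0.449 thinned and -0.194 to 0.980 with a replicate left out. CDR3 length of IGHG1 was 0.250 with copies as weights, 0.229 with at least 2 copies, 0.0275 by lineage and -0.127 to 0.0875 with a replicate left out. The log2 ratio of the members was -3.19 to -1.68 with a replicate left out.

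Of the isotype pairs, 6 passed for V mutation, 7 for CDR3 length and 9 for copies per clonotype. In spleen alone or lymph node alone 0 passed for any of them, nor any J gene of IGHG1, since 4 sign flips allow no p below 0.125. CDR3 length pairs numbered 0 with copies as weights, 3 with at least 2 copies and 0 in both libraries. Copies per clonotype pairs numbered 5 with at least 2 copies, 5 by lineage, 3 in both libraries, 4 thinned, and 6 to 7 with a replicate left out. IGHG3 minus IGHG2 mutation, which had not passed, turned to 0.408 with copies as weights and then passed (adjusted exact p = 0.0100). CDR3 length turned for IGHG1 minus IGHA, to 0.374 with copies as weights and 0.111 with at least 2 copies, and for IGHG1 minus IGHM, to 0.140 with at least 2 copies, 0.269 in both libraries and 0.0561 in spleen alone. IGHG1 minus IGHA copies per clonotype, which had passed, turned to 0.200 thinned.

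J genes past the threshold for IGHG1 were 2 with copies as weights, with at least 2 copies, by lineage and in both libraries, and 0 to 2 with a replicate left out. IGHJ2 of IGHG1 minus IGHM turned to -3.26, -1.37 and -1.51 under the first 3 of these and -2.76 in spleen alone, and spanned -1.93 to 1.59 with a replicate left out. IGHG3 minus IGHM turned for IGHJ3, to -1.05 with copies as weights and -0.0876 in spleen alone, and for IGHJ1, to -0.216 in both libraries, -0.285 in spleen alone and -2.12 to 3.21 with a replicate left out.

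Sharing with any other isotype was 36.9% for IGHG3 with at least 2 copies, 52.5% and 58.3% by lineage for IGHG1 and IGHG3, 6.16% and 9.79% thinned, and 16.1% for IGHG3 with the partner in the other library. The excess of same-numbered sharing was 1.45 to 2.02 for IGHG1 and 2.95 to 5.92 for IGHG3 with a number left out.

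V genes called for IGHG1 against IGHM were 4 with DESeq2, 9 without the filter, 12 by lineage, 6 by copies, 10 with at least 2 copies, 0 with no dispersion trend, 0 in spleen alone, 0 in lymph node alone and 0 to 4 with a replicate left out. For IGHG3 against IGHM they were 5 without the filter, 1 by lineage, 4 by copies, 0 in both libraries, 1 in lymph node alone and 1 to 4 with a replicate left out. For IGHG3 against IGHG1 they were 1 without the filter, 2 with no dispersion trend and 0 to 1 with a replicate left out, while 8 settings with few V genes or replicates could not be estimated (DESeq2, lineages, at least 2 copies, both libraries, lymph node alone, and without spleen replicate 2, 3 or 4).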
